A study of Brassica napus with 24 samples.

Results

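Anthers from large buds (An-LBs) of mock-treated, fertile rapeseed plants were compared with leaves (Ls) of the same mock-treated plot, using the 3 samples titled as mock anthers of large buds and the 3 titled as mock leaves, and the 43603 non-control probes of the array. These are 6 of the 24 samples of the series. Both groups came from the Brassica napus cultivar Zhongshuang No. 9, an inbred line grown in 1 field and sprayed with the carrier solution (DMF and Tween 80) that held no monosulfuron ester sodium (MES), so both tissues carry the carrier treatment. MES is a chemical hybridization agent that makes the anthers sterile. The other samples are small buds (SBs) and anthers from middle buds (An-MBs) of mock plants, and the same 4 tissues of plants sprayed with 0.1 μg/mL MES, with 3 samples in each of the 8 groups. An-LBs were anthers that held microspores from the vacuolated stage up to mature pollen, and Ls were young leaves of the main inflorescence. Each sample was a mixture from 20 rows of plants, so the spread between samples is that between pools and not between single plants. In such bulk tissue, fewer cells of a type and less RNA per cell cannot be told apart.

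Pollen stores a large pool of transcripts for the growth of the pollen tube, and much of this pool encodes enzymes that loosen pectin, pumps and channels for protons and ions, calcium-dependent kinases, small G-proteins of the ROP family and the actin and vesicle machinery of tip growth. A leaf mesophyll cell instead devotes a large share of its transcripts to the photosystems, the Calvin cycle, photorespiration and chlorophyll synthesis. The tapetum, the innermost layer of the anther wall, feeds the microspores and makes the material of the pollen wall, and it breaks down before the pollen is mature.

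The array names its probes by number only. Gene names and Arabidopsis identifiers were those that the study pairs with a probe, and genome positions and probe sequences of the transcripts were not used here. The study designed qRT-PCR primers for 10 of the probes to check this pair of tissues, and the primers of 3 enzymes of chlorophyll turnover are shown because chlorophyll synthesis and breakdown are among the leaf functions compared below. The same CRD1 pair is listed for 2 probes, as is the same CLH pair, so a pair does not tell such probes apart. CRD1 is a subunit of the cyclase that closes the fifth ring of chlorophyll, CHLI is a subunit of the magnesium chelatase at the start of the chlorophyll branch, and CLH is a chlorophyllase. The primers are written 5′ to 3′ as follows.
CRD1 forward: cttggctcttgacttgggtttcc
CRD1 reverse: tctcgtcttggcaccagttctc
CHLI forward: tcttgattctgctgcttcaggttgg
CHLI reverse: gcgtctctaactgtgcctacttgc
CLH forward: cgcacctccaaagcctgtaataatc
CLH reverse: ttccagcatcgtccacttccac

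The 2 tissues differed in a large share of the transcripts measured. Of the 34422 probes that 3 or more of the 6 arrays measured well above background, 7914 (23.0%) were called higher in An-LBs and 9625 (28.0%) lower, at an adjusted p under 0.05 (limma, Benjamini-Hochberg) and a change of at least 2-fold. Together these were 17539 probes, or 51.0%, and the median log2 difference over all probes tested was -0.12. The lower calls were more numerous. Among probes that each of the 6 arrays measured well above background, a change of at least 64-fold was called for 166 higher and 204 lower probes, and one of at least 1024-fold for 21 higher and 0 lower. Samples of the 2 tissues did not overlap in 12068 probes (35.1%) with An-LBs above Ls and in 13811 (40.1%) with An-LBs below Ls.

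Arrays of 1 tissue resembled each other. Pearson's r over probes was 0.951 to 0.987 between An-LBs arrays and 0.964 to 0.978 between Ls arrays, against 0.534 to 0.586 between arrays of different tissue. The share of probes well above background was 76.4% to 79.2% on An-LBs arrays and 73.0% to 73.3% on Ls arrays, and 0 spots were saturated. The 3 arrays of each tissue lay on 3 slides that held both tissues, but An-LBs were always in the same position of a slide and Ls in another, so that tissue cannot be told apart from position.

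Many transcripts were detected in 1 of the 2 tissues only. Of all 43603 probes, 2162 (4.96%) were well above background on the 3 An-LBs arrays and on 0 Ls arrays, and 641 (1.47%) were so on the 3 Ls arrays and on 0 An-LBs arrays. For such probes the fold is a lower bound, the mean of the bright tissue set against the higher of the lowest signal well above background and the dim probe's own signal, per array. Detected stands for well above background here and below. Bounds that were not above 0 on the log2 scale were left out of the medians. The median of the rest was 10.5-fold in the probes detected in An-LBs only and 7.53-fold in those detected in Ls only. The bound reached 2-fold in 1565 of the 2162 probes and in 641 of the 641, and 8-fold in 1049 and 307, so the 2 medians do not compare all probes. It reached 64-fold in 614 probes detected in An-LBs only and in 65 detected in Ls only, and 1024-fold in 199 and 5. The 2 groups of arrays were not equally sensitive, as the lowest log2 signal well above background was 4.63 to 5.14 on An-LBs arrays and 5.79 to 5.91 on Ls arrays. Of the probes detected in An-LBs only, 1937 of 2162 were called higher, against 641 of 641 called lower among those detected in Ls only. Of the 2162 probes, 1282 were also well above background on all 3 mock An-MBs arrays and 669 on all 3 mock SBs arrays.

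Markers of the labelled tissues were taken from the study's probes, which were picked partly for their change in these samples, so their counts are a description and no independent check of tissue identity. Of 32 probes listed here as pollen markers, 31 were called higher in An-LBs, and 22 of the 32 were well above background on 0 Ls arrays. Their mean log2 signal was 13.94 to 14.55 over the An-LBs samples and 5.01 to 5.03 over the Ls samples. The exception was the probe paired with PFN3, a profilin that binds actin monomers, which had log2 signals of 10.96, 10.63 and 11.00 in An-LBs, against 13.74, 14.74 and 13.68 in Ls, and was 9.13-fold lower (adjusted p = 0.000281, limma). These values do not bear out the place of PFN3 among the pollen markers. Of 25 probes for photosynthetic leaf cells, 24 were called lower in An-LBs and 1, for PSAO, higher; their mean log2 signal was 11.30 to 11.61 in An-LBs and 16.47 to 16.67 in Ls.

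A single tapetum marker was among the named probes. LAP6, a polyketide synthase that makes sporopollenin precursors in the tapetum, had log2 signals of 8.28, 8.73 and 7.70 in An-LBs and was not well above background on any Ls array, so it was at least 5.28-fold higher (adjusted p = 0.000104, limma). Its mean was 15.83 ± 0.56 in mock SBs and 6.74 ± 4.16 in mock An-MBs (SD, n = 3). Of 6 vascular probes, 1 was called higher (SKOR, a potassium channel of the stele, 15.6-fold) and 1 lower. The lower one was a probe of SWEET11, a sucrose exporter (A_46_P371240, adjusted p = 0.0305, limma). That call was lost with the scan date as a block and without An-LBs replicate 1 (log2 difference -1.92). It was also lost without Ls replicate 1 (-1.90), 2 (-1.80) or 3 (-1.98). A further SWEET11 probe (A_46_P231464) was not called, with a log2 difference of -0.48 (adjusted p = 0.52, limma). Without An-LBs replicate 2 the vascular calls were 2 higher and 3 lower. The mean log2 signal of the 6 probes was 12.08 to 13.38 in An-LBs and 12.41 to 12.66 in Ls. The part of vascular cells in the other results was not tested.

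**Figure D1:**
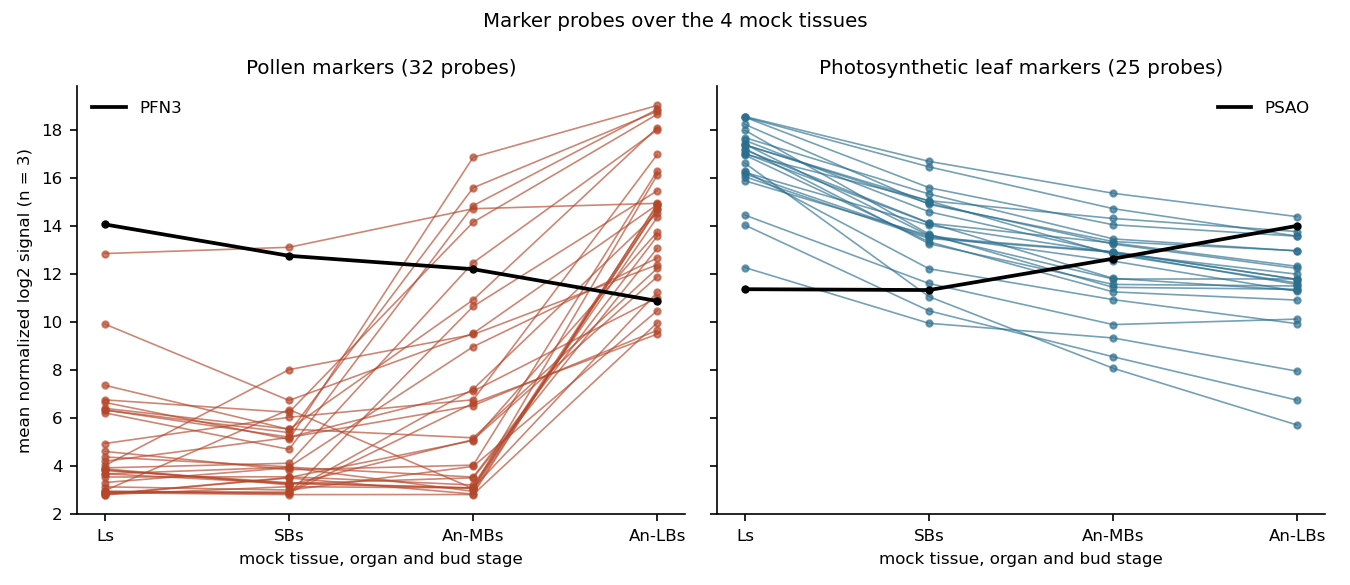
Mean normalised log2 signal (n = 3) of each pollen marker probe (left) and each photosynthetic leaf marker probe (right) in the 4 mock tissues, Ls, SBs, An-MBs and An-LBs. Apart from PFN3, drawn in black, the 31 pollen probes were highest in An-LBs; apart from PSAO, drawn in black, the 24 leaf probes were highest in Ls.

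Over the 4 mock tissues, the probes called in this comparison mostly had their extreme in 1 of the 2 tissues compared. An-LBs had the highest mean in 6209 (78.5%) of the 7914 probes called higher. Ls had the highest mean in 7044 (73.2%) of the 9625 probes called lower, and An-LBs the lowest in 7529 (78.2%). Over all 34422 probes tested, An-LBs were highest in 9770, Ls highest in 10161 and An-LBs lowest in 13203. A probe called higher in An-LBs cannot be highest in Ls, and one called lower cannot be highest in An-LBs. The calls themselves thus favour these shares. Among the pollen markers the median difference from mock Ls was 10.78 on the log2 scale in An-LBs, 1.03 in An-MBs and -0.11 in SBs. These are fitted values, and 22 of the 32 probes were detected on 0 Ls arrays; with lower bounds in their place the An-LBs median was 8.21. Among the leaf markers it was -4.96 in An-LBs, -4.48 in An-MBs and -2.85 in SBs. These differences share the leaf arrays, so they are given side by side only.

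Named genes were grouped into functional lists from the study's tables. The study picked most of these probes, partly on the present samples, because they changed with MES and differed between tissues. Others come from its primers. A list is therefore not independent evidence of its own direction. Of 1494 such probes tested, 949 were called higher and 377 lower, with a median log2 difference of 2.66 (2.41 with lower bounds in place of fitted values), against 6965 higher, 9248 lower and a median of -0.16 among the 32928 other probes. The lists ran from pectate lyases and polygalacturonases, with 13 of 13 tested probes higher, to the Calvin cycle and photorespiration, with 9 of 9 lower.

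**Figure D2:**
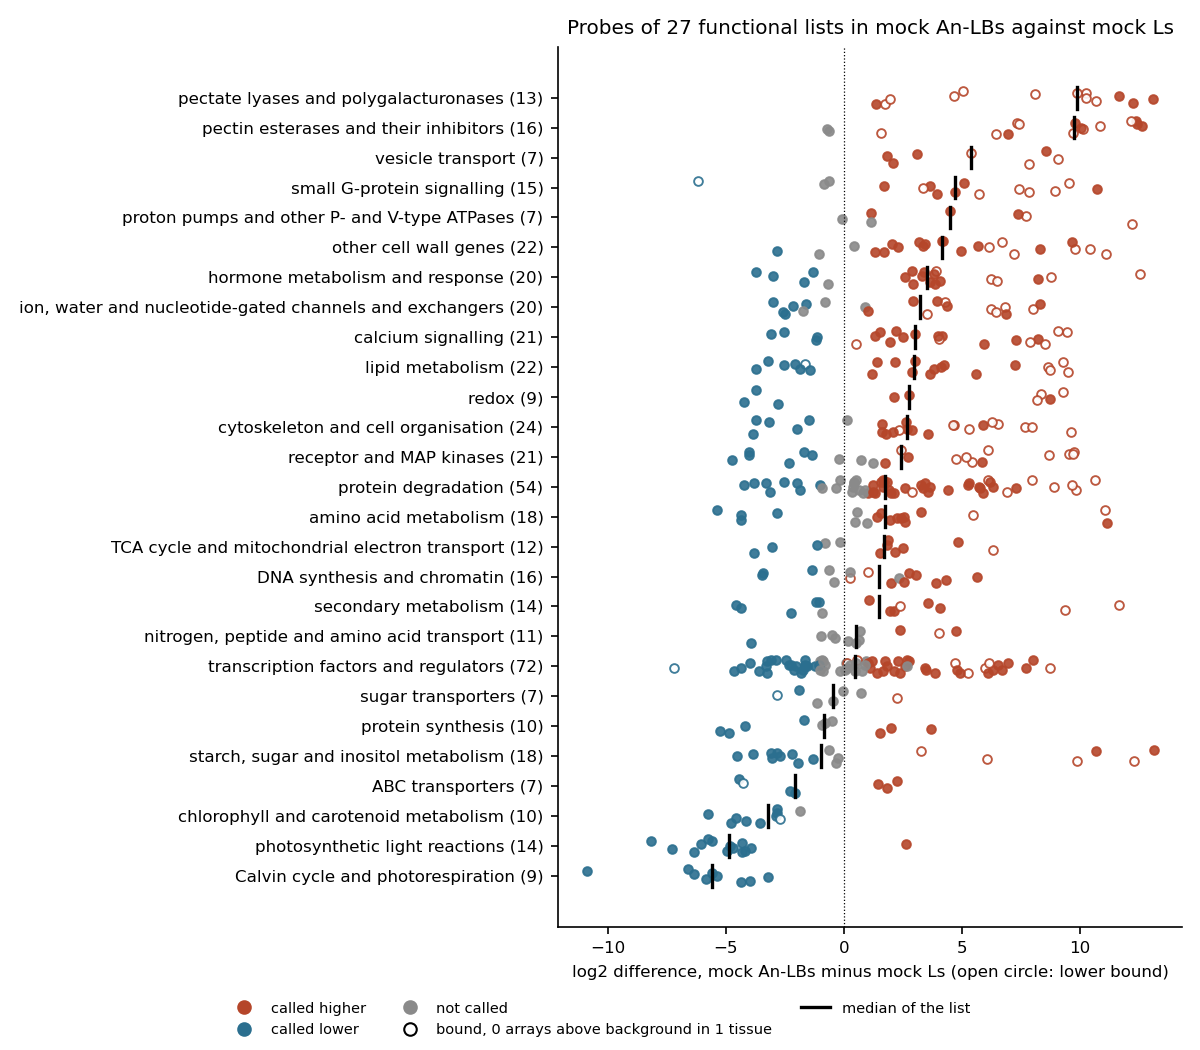
Log2 difference of mock An-LBs minus mock Ls for each tested probe of 27 functional lists (light signalling, with 3 probes, is not drawn), with the number of probes in brackets; red points were called higher, blue lower, grey not called, and open points are lower bounds for probes that no array of 1 tissue measured well above background. The black bar is the median of a list with bounds in place: 9.87 for pectate lyases and polygalacturonases at the top and -5.61 for the Calvin cycle and photorespiration at the bottom.

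Of the functional lists, those of pectin-modifying enzymes had the largest median rises, also with bounds. Of 16 probes for pectin esterases and their inhibitors, 14 were called higher and 0 lower, with a median log2 difference of 10.16, or 9.76 with bounds. Of 14 probes for pectate lyases and polygalacturonases, 13 were tested and all 13 were called higher, with a median of 11.66, or 9.87 with bounds. Pectin esterases remove methyl groups from pectin, and lyases and polygalacturonases cut the demethylated chain.

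Among pectin esterases, PPME1, needed in Arabidopsis for normal growth of the pollen tube, had log2 signals of 18.78, 18.71 and 18.81 in An-LBs, against 6.49, 6.28 and 6.20 in Ls. The samples of the 2 tissues were far apart, and the difference was 12.45 ± 0.14 (SE, adjusted p = 9.32e-08, limma). A further PPME1 probe (A_46_P034246) differed by 10.73 ± 0.19. VGD1, which lets the pollen tube grow through the style in Arabidopsis, had 18.69, 18.78 and 18.47 in An-LBs and 7.09, 6.21 and 6.93 in Ls on probe A_46_P003076. A further VGD1 probe (A_46_P302240) had 18.02, 18.03 and 17.94 in An-LBs and was well above background on no Ls array, which makes it at least 4579.6-fold higher. The VGD1 relatives VGDH2 and VGDH1 differed by 12.38 ± 0.19 and 12.65 ± 0.28. All of these were separated without overlap.

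Among the enzymes that cut pectin, 4 probes paired with the Arabidopsis gene AT3G07840, a member of the pectin lyase-like superfamily, lay among the largest rises. On the probe well above background on all 6 arrays (A_46_P228274), the log2 signals were 19.15, 19.03 and 19.15 in An-LBs, against 6.67, 6.15 and 6.30 in Ls, a difference of 12.74 ± 0.17 (adjusted p = 1.62e-07, limma). On A_46_P225714 it was at least 7300.2-fold higher. AT59, a pectate lyase known from pollen, had 16.25, 16.39 and 15.72 in An-LBs and was not detected in Ls, at least 1247.7-fold higher. The pectate lyases AT2G02720 and AT5G15110 were likewise detected in An-LBs only. At the other end of the list PGA4, a polygalacturonase, was at least 25.5-fold higher.

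**Figure D3:**
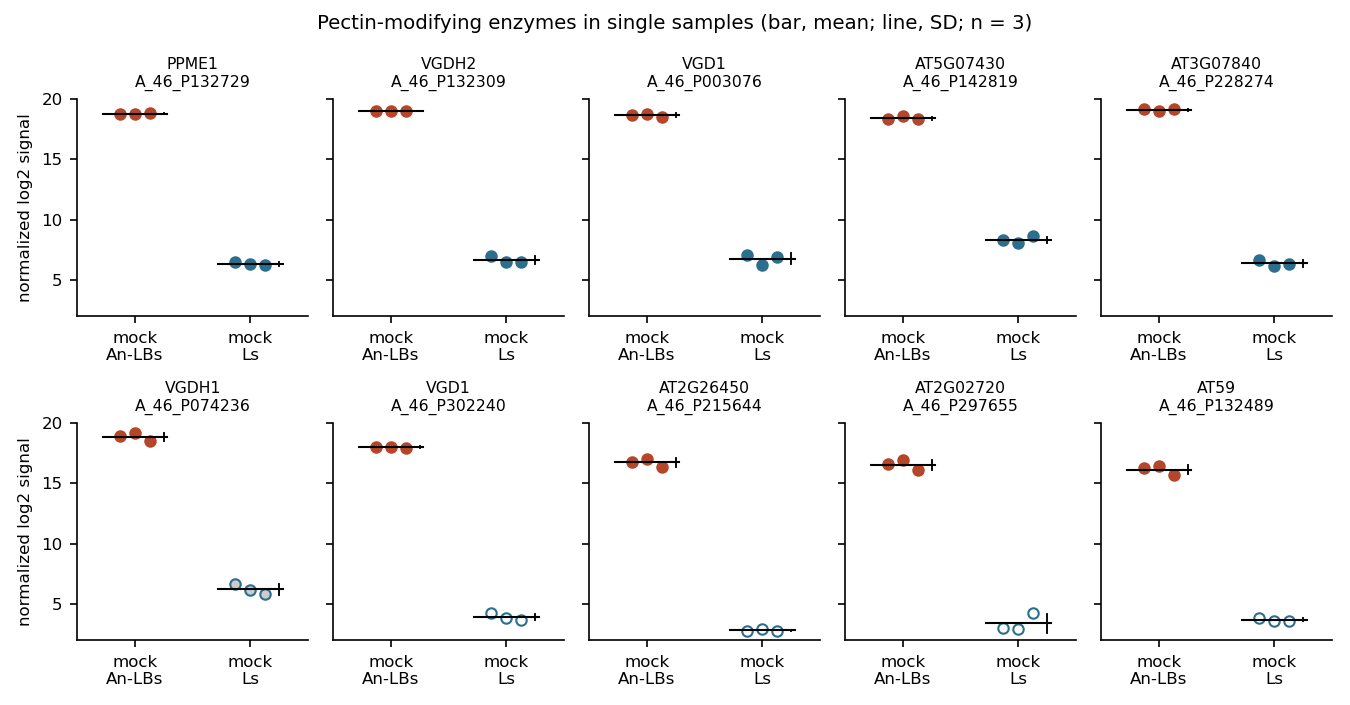
Normalised log2 signal of 10 probes for pectin-modifying enzymes in the 3 mock An-LBs (red, left) and 3 mock Ls (blue, right) samples, with the mean (bar) and SD (line); filled points belong to a tissue with all 3 arrays well above background, grey ones to a tissue with some and white ones to a tissue with 0. PPME1 lies at 18.71 to 18.81 in An-LBs and 6.20 to 6.49 in Ls, and the 10 probes show no overlap.

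Other cell wall genes rose in 19 of 22 probes and fell in 1, with a median log2 difference of 4.17. FLA3, a fasciclin-like arabinogalactan protein needed for microspore development in Arabidopsis, had 17.08, 17.18 and 16.65 in An-LBs and was detected on 0 Ls arrays, at least 2245.3-fold higher. The arabinogalactan protein AGP23 behaved alike, with 16.30, 16.70 and 15.87 in An-LBs. CSLD4, a cellulose synthase-like protein of tip-growing cells, had 14.97, 14.94 and 14.74 in An-LBs, against 10.09, 10.28 and 9.33 in Ls. The member that fell was BXL1, a beta-xylosidase, by 2.85 ± 0.21 on the log2 scale, and without An-LBs replicate 1 the count of lower probes was 2. Outside this list, a further BXL1 probe (A_46_P259534) and the study's wall gene CAD4 (A_46_P289908) were also called lower. Both calls were lost with arrays shifted to the 75th percentile and without any single Ls sample.

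Vesicle transport genes were called higher in 7 of 7 probes, with a median log2 difference of 8.44 (5.40 with bounds). The syntaxin SYP125, a membrane fusion protein of pollen, had 15.03, 15.38 and 14.33 in An-LBs and was at least 539-fold higher than in Ls, where it was not detected. SYP131 was at least 42.1-fold higher, and EXO70C2, a subunit of the exocyst that tethers vesicles, differed by 8.59 ± 0.26.

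Small G-protein genes rose in 12 of 15 tested probes. ROPGEF12, which activates ROP switches at the pollen tube tip, had 14.82, 15.37 and 14.16 in An-LBs and was at least 493-fold higher. The ROP effectors RIC1 and RIC6 were at least 745-fold and 229-fold higher. The probe that fell was AGD4, an activator of the GTPase activity of ARF proteins in vesicle traffic, which was not detected in An-LBs and had 11.32, 11.09 and 10.72 in Ls, at least 72.6-fold lower.

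Of 24 cytoskeleton probes, 18 (75%) were called higher and 5 (20.8%) lower, against 63.5% and 25.2% of the study's probes. The median log2 difference of the list was 2.78. ADF7, an actin depolymerizing factor of pollen, had 15.46, 15.75 and 15.16 in An-LBs and was at least 789-fold higher, with 0 Ls arrays well above background. ACT4, a reproductive actin, had 10.31, 10.84 and 10.23 in An-LBs and was also undetected in Ls. Against these, PFN3 fell, as given above, as did ITN1 and a plastid lipid-associated protein (AT3G26070, by 3.86 ± 0.16), which the study's tables class here.

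Calcium signalling was called higher in 17 of 21 probes and lower in 4. The calcium-dependent kinases CPK17 and CPK24, which act in pollen tubes of Arabidopsis, had 14.46, 14.84 and 13.77, and 13.79, 14.31 and 13.12, in An-LBs, and neither was detected in Ls. CPK17 was at least 367-fold and CPK24 at least 240.1-fold higher. The related CPK5, known from leaf defence signalling, moved the other way, with 12.76, 12.92 and 12.73 in An-LBs, against 14.09, 13.71 and 14.14 in Ls, 2.26-fold lower (adjusted p = 0.00129, limma).

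Receptor and MAP kinases were called higher in 12 of 21 tested probes (57.1%) and lower in 6 (28.6%), near the 63.5% and 25.2% of the study's probes. ANX2, a receptor kinase that keeps the growing pollen tube intact, had 14.63, 14.85 and 14.11 in An-LBs and was at least 415-fold higher. IGI1 and PERK4, both proline-rich extensin-like receptor kinases, were at least 839-fold and 881-fold higher. The 6 that fell included the cysteine-rich receptor kinase CRK10, by 4.01 ± 0.31, and MEK1, a MAP kinase kinase, by 1.67 ± 0.22.

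Proton pumps and other P- and V-type ATPases were called higher in 5 of 7 probes (71.4%) and lower in 0. Among the study's probes the shares were 63.5% and 25.2%. The median log2 difference of the list was 4.50. HA9, a plasma membrane H+-ATPase, had 18.71, 16.98 and 18.53 in An-LBs and was detected on 0 Ls arrays, at least 4836.1-fold higher. AHA8 was at least 213-fold higher. AHA6 was measured in both tissues, with 14.04, 13.60 and 13.91 in An-LBs, against 6.33, 6.20 and 6.89 in Ls, a difference of 7.38 ± 0.23 without overlap. Plasma membrane H+-ATPases acidify the wall and power uptake across that membrane.

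Channels and exchangers were called higher in 12 of 20 probes (60%) and lower in 5 (25%), near the shares of the study's probes (63.5% and 25.2%). The cation/proton exchangers CHX8 and CHX1 were detected in An-LBs only, at least 87.2-fold and 74.9-fold higher, as was CNGC18, a cyclic nucleotide-gated calcium channel of the pollen tube. Those that fell included the iron-regulated transporter MAR1 (by 2.99 ± 0.18) and the cyclic nucleotide-binding transporter CNBT1 (by 2.51 ± 0.23). OPT1, an oligopeptide transporter, had 15.89, 16.25 and 15.58 in An-LBs, against 11.46, 11.34 and 10.72 in Ls, 26.7-fold higher, and was 1 of 3 nitrogen transport probes of 11 called higher.

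Sugar and starch genes were divided. Of 18 probes, 6 were called higher and 9 lower, and the median was -0.97. MIOX4, which oxidises inositol towards wall sugars, had 16.68, 16.95 and 16.20 in An-LBs, against 5.83, 5.86 and 6.08 in Ls, and GATL4, a galacturonosyltransferase-like protein, was at least 940.4-fold higher. Among those that fell were enzymes of plastid starch metabolism. ADG1, the small subunit of ADP-glucose pyrophosphorylase, had 7.40, 7.38 and 8.59 in An-LBs, against 12.44, 12.37 and 12.18 in Ls, 23.3-fold lower. The phosphoglucomutase PGM was 8.37-fold lower and myo-inositol-1-phosphate synthase 7.12-fold lower.

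Lipid genes were called higher in 15 of 22 probes (68.2%) and lower in 7 (31.8%), near the 63.5% and 25.2% of the study's probes. An oleosin (AT2G25890), a coat protein of oil bodies, had 16.69, 15.78 and 16.51 in An-LBs on probe A_46_P026421 and was at least 1440.2-fold higher, with 0 Ls arrays well above background. On the lower side stood PLDALPHA1, a phospholipase D, with 14.47, 14.62 and 14.52 in An-LBs, against 16.49, 16.62 and 16.69 in Ls. In amino acid metabolism 11 of 18 probes (61.1%) were higher and 4 (22.2%) lower, also near these shares. ERD5, a proline dehydrogenase, had 17.02, 17.10 and 16.56 in An-LBs and was at least 2135.2-fold higher, while 3 of the 4 that fell were aminotransferases of photorespiration (AGT, GGT1 and AOAT2), from 20.4-fold to 41.6-fold lower.

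Several genes detected in An-LBs only encode proteins of unknown function. AT3G28980 had 19.08, 19.08 and 19.24 in An-LBs and was at least 10055.5-fold higher. AT3G28790 was at least 8337.6-fold higher, and 2 probes of AT5G48575 were at least 6499.1-fold and 5745.7-fold higher. AT5G53820, a late embryogenesis abundant protein, had 18.39, 18.17 and 18.59 and was at least 5990.1-fold higher. None of these was well above background on any of the 3 Ls arrays.

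The genes of photosynthesis fell. Of 14 probes for the light reactions, 13 were called lower and 1 higher, with a median log2 difference of -4.88, and all 9 Calvin cycle and photorespiration probes were called lower, with a median of -5.61. Most of these transcripts remained well above background in An-LBs, namely 13 of the 14 and 7 of the 9 on all 6 arrays.

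In carbon fixation, RCA, the activase that frees Rubisco of inhibitory sugars, had 11.22, 11.58 and 11.26 in An-LBs, against 17.94, 18.13 and 17.85 in Ls, 98.4-fold lower (adjusted p = 1.24e-06, limma). GAPA, the glyceraldehyde 3-phosphate dehydrogenase of the Calvin cycle, had 11.39, 11.12 and 11.42 in An-LBs, against 17.09, 17.20 and 17.18 in Ls, 57.5-fold lower. The tissues were separated by several log2 units in both. CP12-2, which holds that enzyme in an inactive complex, had 6.33, 3.24 and 7.51 in An-LBs, against 16.59, 16.65 and 16.59 in Ls, and only 2 of the 3 An-LBs arrays were well above background. Photorespiration followed: AT3G14415, a glycolate oxidase, was 81.3-fold lower and AGT 41.6-fold lower.

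In the light reactions, the photosystem I subunit PSAK had 6.91, 6.42 and 6.86 in An-LBs, against 14.02, 14.22 and 13.84 in Ls, 157-fold lower (adjusted p = 1.58e-06, limma). The subunits PSAL and PSAN were 65.9-fold and 53.9-fold lower, and PETC, the Rieske protein of the cytochrome complex, differed by -5.58 ± 0.13. The single rise was PSAO, also a photosystem I subunit, with 13.98, 14.13 and 13.88 in An-LBs, against 11.32, 11.56 and 11.19 in Ls, 6.24-fold higher (adjusted p = 3.29e-05, limma). Its samples did not overlap between the tissues.

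**Figure D4:**
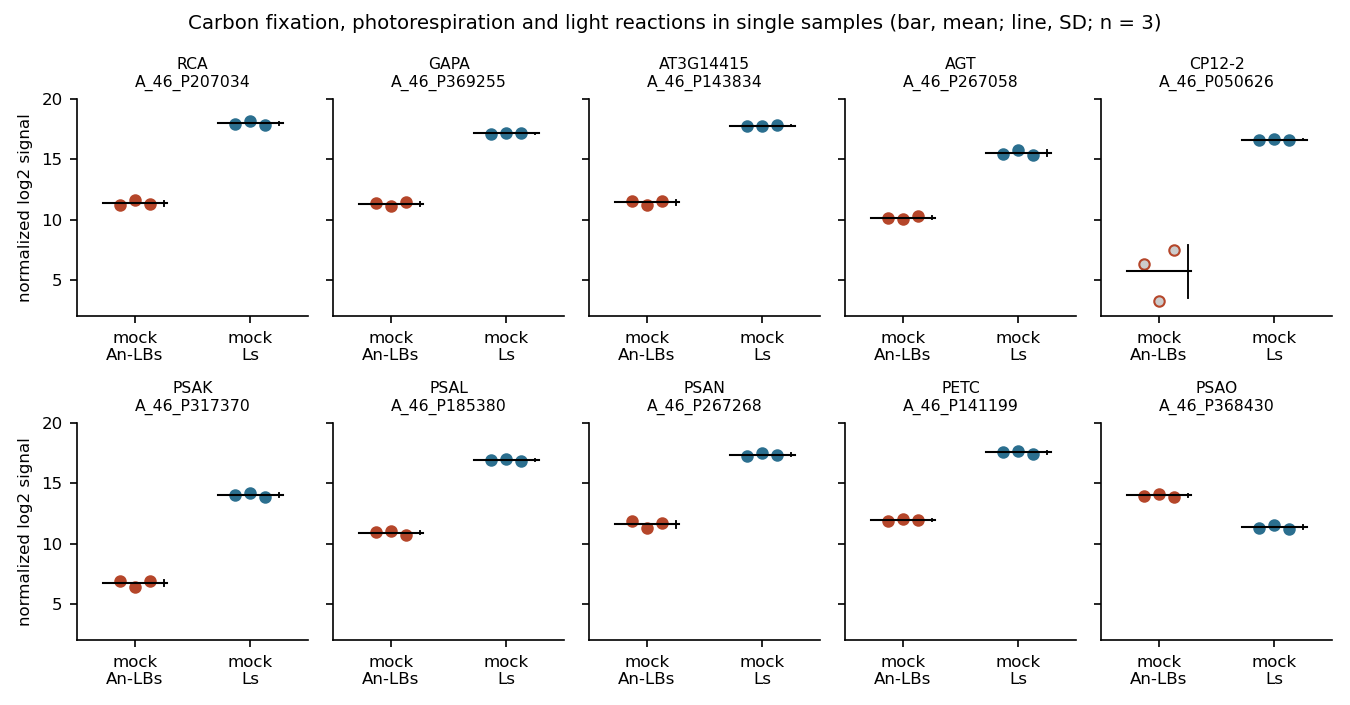
Normalised log2 signal of 10 probes for carbon fixation and photorespiration (top) and light reactions (bottom) in the 3 mock An-LBs (red, left) and 3 mock Ls (blue, right) samples, with the mean (bar) and SD (line); grey points belong to a tissue with only some arrays well above background. In 9 probes An-LBs lie below Ls, and in PSAO they lie above, at 13.88 to 14.13 in An-LBs against 11.19 to 11.56 in Ls.

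Chlorophyll and carotenoid genes fell in 9 of 10 probes (90%), against 25.2% of the study's probes. The median log2 difference was -3.86, or -3.21 with bounds. Probes of this list, CRD1, CHLI, CLH and VDE among them, have primers that the study lists for mock anthers over mock leaves. The count is thus a description and no independent evidence of a direction. CRD1, whose primers are shown above, had 11.59, 10.33 and 11.46 in An-LBs, against 16.95, 16.98 and 16.79 in Ls, 55.0-fold lower, and 2 further CRD1 probes were 24.1-fold and 27.8-fold lower. CHLI had 9.92, 10.88 and 9.97 in An-LBs, against 14.55, 14.70 and 14.00 in Ls, 17.9-fold lower. CLH had 12.97, 13.24 and 12.86 in An-LBs, against 15.65, 15.85 and 16.11 in Ls, 7.19-fold lower. None of the 3 overlapped between tissues. VDE, the de-epoxidase of the xanthophyll cycle, was not detected in An-LBs and was at least 6.60-fold lower.

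Of the other probes with primers for this pair of tissues, AOAT2 and 2 more were called lower and 4 higher. The probe for succinate dehydrogenase 3-1 had 12.93, 12.68 and 12.88 in An-LBs, against 11.63, 11.41 and 11.93 in Ls, 2.26-fold higher. A phosphoglycerate mutase family probe was 4.78-fold higher. ATCSLA11, a cellulose synthase-like protein, was at least 4.19-fold lower, being undetected in An-LBs.

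The largest fall among named probes well above background on all 6 arrays was that of LOG1, an enzyme that releases active cytokinin from its nucleotide. It had 6.50, 5.70 and 7.62 in An-LBs, against 15.98, 15.86 and 15.66 in Ls, a difference of -9.23 ± 0.48 (adjusted p = 1.83e-05, limma). Among all such probes, named or not, A_46_P227364 and A_46_P041026, to which the sources used here pair no gene, fell further, by 9.74 ± 0.52 and 9.53 ± 0.52. AT1G09500, of the Rossmann-fold dehydrogenases, had 6.43, 6.14 and 7.13 in An-LBs, against 14.08, 14.32 and 13.98 in Ls, and AT5G59750, a riboflavin synthesis protein, was 96.6-fold and 74.9-fold lower on its 2 probes.

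In the other direction of detection, CRK40, a cysteine-rich receptor kinase, was well above background on 0 An-LBs arrays and had 13.22, 13.10 and 12.38 in Ls, at least 263-fold lower. UNE10, a bHLH transcription factor that acts in light signalling, was at least 146-fold lower, IAA15, an auxin-responsive repressor, at least 71.5-fold lower, and AT2G41420, a proline-rich protein, at least 75.6-fold lower.

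Transcription factors, the largest list, were split, with 32 of 72 tested probes higher, 23 lower and a median log2 difference of 0.64 (0.48 with bounds). AT2G17180, a C2H2 zinc finger protein, had 14.76, 14.92 and 14.10 in An-LBs and was undetected in Ls. Those that fell included WRKY25 (by 3.62 ± 0.20), MYB51, a regulator of indole glucosinolate synthesis (by 4.35 ± 0.31), the ethylene regulator EIL1 (by 2.04 ± 0.13) and the plastid factor PTAC13 (by 4.67 ± 0.22). Hormone genes were called higher in 15 of 20 (75%) and lower in 4 (20%), against 63.5% and 25.2% of the study's probes. DWF4, the rate-limiting hydroxylase of brassinosteroid synthesis, had 13.12, 13.52 and 13.36 in An-LBs, against 9.90, 10.12 and 9.02 in Ls.

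Protein degradation genes were called higher in 35 of 54 tested probes (64.8%) and lower in 8 (14.8%), with a median of 1.77. Among the study's probes the shares were 63.5% and 25.2%, so the higher share was near that of the whole set. The subtilases AT5G11940 and AT4G21323 were detected in An-LBs only, while CLPC, the chaperone of the plastid Clp protease, fell, with 15.69, 15.75 and 15.89 in An-LBs, against 17.81, 17.82 and 17.69 in Ls. Protein synthesis genes were 3 higher (30%) and 4 lower (40%) of 10. Of the 4 that fell, AT2G43030 (29.0-fold), AT1G68590 (38.6-fold) and AT1G64510 (18.2-fold) were 2 ribosomal proteins and an elongation factor family protein. Of 9 redox genes 6 rose (66.7%) and 3 fell (33.3%), against 63.5% and 25.2% of the study's probes. GPX4, a glutathione peroxidase, was at least 333-fold higher and FTRA1, a subunit of ferredoxin/thioredoxin reductase, 13.0-fold lower.

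Of the remaining lists, sugar transporters had 1 probe higher and 2 lower of 7 (14.3% and 28.6%). The shares were 63.5% and 25.2% among the study's probes, and 23.0% and 28.0% among all probes tested. The lower count of sugar transporters was 4 without An-LBs replicate 2 and 1 without An-LBs replicate 1 or any single Ls sample. INT2, an inositol transporter, was at least 7.20-fold lower. ABC transporters had 3 higher and 4 lower of 7, with PEN3, an exporter in defence, at least 19.5-fold lower. The tricarboxylic acid cycle and mitochondrial electron transport had 7 higher (58.3%) and 3 lower (25%) of 12, near the 63.5% and 25.2% of the study's probes. NADP-ME3, a malic enzyme, had 16.95, 16.81 and 16.91 in An-LBs, against 11.90 to 12.18 in Ls, and was 29.1-fold higher. Secondary metabolism had 8 higher (57.1%) and 5 lower (35.7%) of 14. DNA synthesis and chromatin had 9 higher (56.2%) and 3 lower (18.8%) of 16, and light signalling 0 higher and 1 lower of 3. Without An-LBs replicate 2 light signalling had 1 higher, and without Ls replicate 3 secondary metabolism had 3 lower. Nitrogen transport had 1 probe called lower, NRT2.5, a nitrate transporter, whose An-LBs samples were 3.24, 2.82 and 8.02. That call was lost without An-LBs replicate 1 (log2 difference -3.23), without An-LBs replicate 2 (-3.02) and without each Ls sample (-4.05 to -3.80). It was also lost with arrays shifted to the 75th percentile, without the filter, and with the replicate, slide or scan date as a block.

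Brassica napus carries the genomes of 2 parent species, so a gene of Arabidopsis often has several copies. Of 203 Arabidopsis genes with 2 or more tested probes (491 probes, up to 9 for a gene), 145 had all their probes called higher in An-LBs, 36 had all called lower and 22 had some not called. None had 1 probe called higher and another lower. The probes of a gene could still differ in size, as in VGD1 above, and whether they measure different copies was not tested.

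The An-LBs samples were not alike for every gene. In AT1G20130, a GDSL lipase, the log2 signals were 15.39, 5.03 and 14.71 in An-LBs, against 5.84, 6.04 and 6.17 in Ls, so that the tissues overlapped through replicate 2 and the gene was not called (adjusted p = 0.11, limma). Without that sample the difference was 9.03 and passed the test. FLA5, a fasciclin-like protein, had 14.10, 10.03 and 13.56 in An-LBs and was detected on 0 Ls arrays, at least 106-fold higher. In both genes replicate 2 was the low sample, and the mean in mock An-MBs was above that in mock An-LBs, with 18.25 against 11.71 for AT1G20130 and 15.54 against 12.57 for FLA5.

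The same pair of tissues was measured in MES-treated plants. The question was whether the difference of An-LBs minus Ls was itself different in MES-treated plants, tested as an interaction over the 12 arrays of the 2 tissues. Of 36393 probes tested, 5465 (15.0%) had a higher value of the difference in MES-treated plants and 4060 (11.2%) a lower one, at an adjusted p under 0.05 and at least 1 on the log2 scale. The array of MES An-LBs replicate 2 came from another slide and scanner, and without it the counts were 4815 and 3754.

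In the pollen markers, 31 of 32 probes had a lower difference in MES-treated plants, where the median of An-LBs minus Ls was 0.04, against 10.78 in mock plants (8.21 with bounds). The study picked its probes partly for a change with MES in these samples, so marker counts are a description only. Of 1515 of the study's probes tested, 872 had a lower and 411 a higher difference, against 11.2% and 15.0% of all probes. AT1G29140, a pollen Ole e 1 allergen family protein, had 7.42, 8.16 and 9.40 in MES An-LBs and 8.03, 7.86 and 7.98 in MES Ls, against 18.36, 18.34 and 18.34 in mock An-LBs and 6.93, 7.14 and 6.62 in mock Ls. Its tissue difference was thus 0.37 in MES-treated and 11.45 in mock plants (interaction -11.08 ± 0.56, adjusted p = 3.07e-07, limma). On the PPME1 probe A_46_P034246 the interaction was -10.70 ± 0.59, and on VGD1 (A_46_P003076) it was -10.31 ± 0.54. AT3G07840 kept a large difference in MES-treated plants, 7.33 against 12.74 in mock plants.

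In the leaf markers, 24 of 25 probes had a higher, less negative, difference in MES-treated plants, with a median of -2.95, against -4.96 in mock plants. The limit given for the pollen markers holds for this count too. RCA had 13.46, 13.18 and 13.17 in MES An-LBs and 17.41, 17.20 and 17.07 in MES Ls, so the tissue difference was -3.96 in MES-treated plants and -6.62 in mock plants (interaction 2.66 ± 0.24, adjusted p = 2.70e-05, limma). PSAO, the exception in mock plants, was also the exception here, with an interaction of -1.12 ± 0.23.

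Outside the markers, LOG1 shifted most among the 12 largest falls named by gene. It had 14.99, 14.97 and 13.69 in MES An-LBs and 14.89, 15.55 and 14.17 in MES Ls, a difference of -0.32, against -9.23 in mock plants (interaction 8.91 ± 0.74, adjusted p = 1.39e-05, limma). AT1G09500 moved by 7.91 ± 1.11. AT1G49750, a leucine-rich repeat protein, differed by -5.76 in MES-treated and -6.29 in mock plants, and its interaction of 0.53 ± 0.82 did not pass the test. The largest rises and falls, AT1G29140, PPME1, VGD1, LOG1 and AT1G09500 among them, were picked for their difference in mock plants. The interaction subtracts that same difference, so the choice favours a smaller difference in MES-treated plants.

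**Figure D5:**
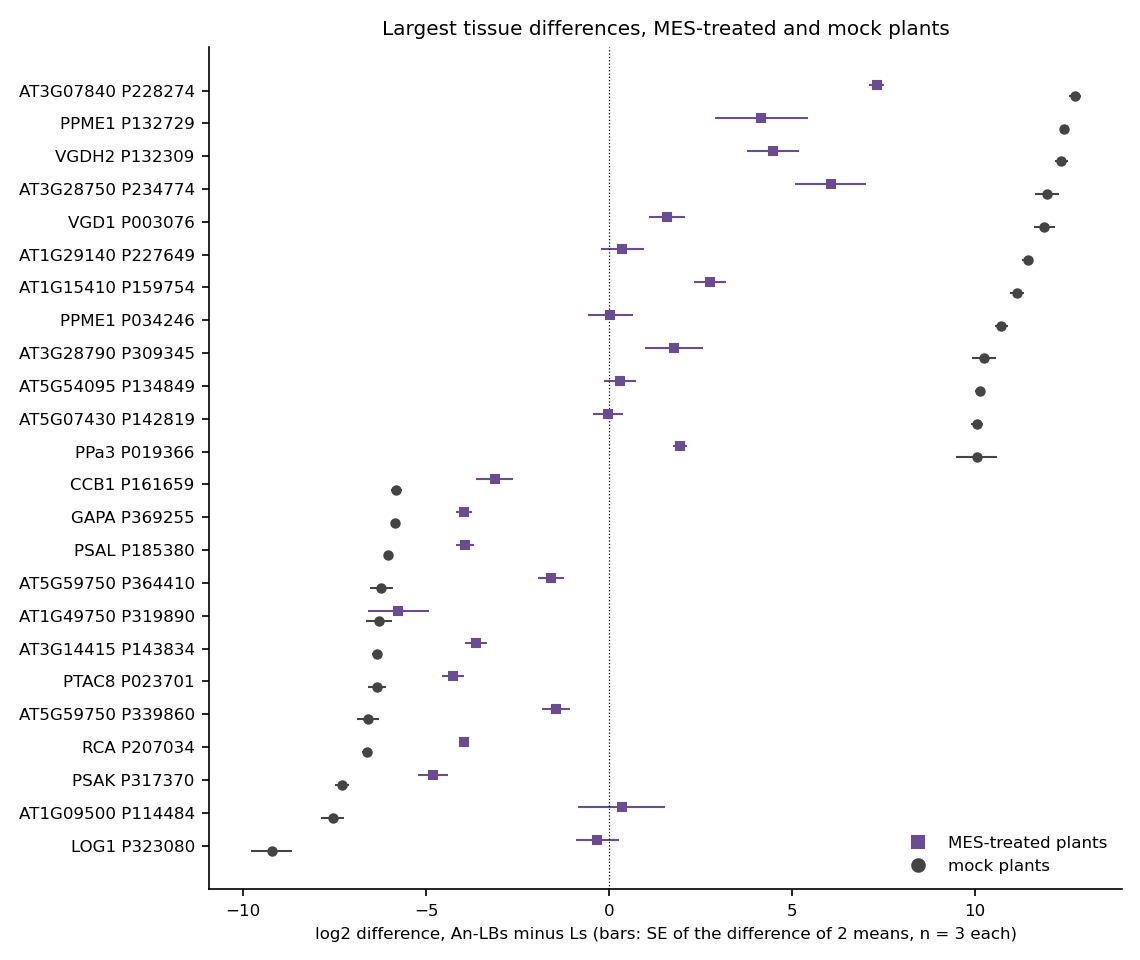
Log2 difference of An-LBs minus Ls in MES-treated plants (purple squares) and mock plants (dark circles) for the 12 largest rises and 12 largest falls of mock plants among named probes; bars are the SE of the difference of 2 means of 3 samples. LOG1 lies at -0.32 in MES-treated and -9.23 in mock plants, and AT1G49750 is the probe whose 2 values lie closest. The probes were picked for their difference in mock plants, which favours a smaller difference in MES-treated plants.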

How the data were processed

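RNA of 24 samples was labelled with Cy3 and hybridised to Agilent Brassica arrays in 1 colour, and the 6 arrays of mock An-LBs and mock Ls were analysed. For each spot the authors read the intensity with Feature Extraction software (version 9.1 in the submitters' processing notes, 10.7.3.1 per the file headers). The deposited log2 values, used for every comparison, were made by the authors by quantile normalization in GeneSpring. Both tissues thus share 1 distribution of values, so a change of the total RNA of a cell does not show. The array number limits the precision.

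Groups were compared by limma 3.58.1 (lmFit and eBayes, two-sided) under R 4.3.3 with data.table (version 1.17.8), over probes that 3 or more of the 6 arrays measured well above background, with no weight for outlying spots. A probe was called at a Benjamini-Hochberg adjusted p under 0.05 over all probes tested and a change of at least 2-fold. Every p of the report comes from these limma fits. The interaction with MES was fitted on 12 arrays. The replicate numbers were not used as pairs.

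The members, gene lists and tests were chosen with earlier results of these data known. Named probes are the 12 largest rises and 12 largest falls among probes paired with a gene, the 3 largest each way among all probes, the probes of the study's carbohydrate, wall and lipid genes, the 4 largest changes of each list with those called against its majority, the probes with primers for this pair, and the 6 largest bounds each way. Genes with probes called in both directions were to be named, and 0 were found. Others named as markers were chosen after their values were seen. The authors' own fold changes were not used. The fits were tested on simulated data.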

Additional observations from a re-analysis of the deposited data

Results flagged for a closer look

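The difference of An-LBs minus Ls was itself different in MES-treated and mock plants, by the interaction test of limma, for 5465 probes with a higher and 4060 with a lower value in MES-treated plants. Among the probes named for their large tissue difference, it was lower in MES-treated plants by 11.08 for AT1G29140 (interaction -11.08 on the log2 scale), with -10.70 for PPME1 (A_46_P034246) and -10.31 for VGD1 (A_46_P003076). It was higher by 5.14 for AT5G59750 (A_46_P339860), by 7.91 for AT1G09500 and by 8.91 for LOG1. Choosing probes by their difference in mock plants, which the interaction subtracts, favours such shifts. Of the marker lists, 31 of 32 pollen probes had a lower and 24 of 25 photosynthetic leaf probes a higher difference in MES-treated plants. The study picked these probes partly for a change with MES in these samples, so the counts are a description only. The samples were 3 in each of the 4 groups.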

How the results depend on the processing

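The counts of 7914 higher and 9625 lower probes stayed within 1.5 times of these values under every other normalization, filter, weight, block and array left out that was tried. They fell to 4058 and 4872 with the methods' t-test at an unadjusted p under 0.001 and 2-fold (7349 and 8906 after Benjamini-Hochberg), and to 3126 and 3082 at an 8-fold threshold on the fitted changes, which asks more of each probe. Leaving out 1 array gave 7554 to 7842 higher and 9040 to 9747 lower. With the replicate number as a block, which is also the slide, they were 7823 and 9546, and 17161 of the 17539 calls were kept; the counts of the interaction were then 4603 and 3739. Equally numbered An-LBs and Ls arrays did not deviate together from their group means, with correlations of -0.06, 0.08 and -0.01 over 28945 probes. Such arrays share a slide, and this check cannot show that the samples are unpaired. With replicates 2 and 3 only, the second scan date, an alternative chosen after seeing the data, the counts were 6723 and 7885. With arrays shifted to the 75th percentile instead of quantiles they were 8662 and 9038, and the median of all probes was -0.02 in place of -0.12. No called probe changed direction in any of these settings.

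For the interaction the lower count fell to 2538 when probes had to be well above background on all 12 arrays. That filter drops transcripts undetected on any array of leaves or of An-LBs, in mock or in MES-treated plants. Leaving out 1 array gave 4237 to 6343 higher and 3500 to 4615 lower. The direction turned, among probes that were not called, for SWEET11 (A_46_P231464), with -1.13 to 0.16 when 1 array was left out (0.16 without An-LBs replicate 3), and for the interaction of AT1G49750, with -0.17 to 1.07 (-0.17 without MES An-LBs replicate 2). Of 4975 values of named probes over the alternatives, 4881 kept their direction and call, 83 lost the call and 10 gained it. Of 1280 list counts 52 moved by over 1.5 times, 21 of them when probes had to be well above background on all 6 arrays, where pectate lyases and polygalacturonases kept 1 probe called higher, pectin esterases 4 and pollen markers 6.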
